A study of Homo sapiens with 15 samples.

Results

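The comparison described here sets a 7-day neural induction labelled RABC against the self-renewing neuromesodermal progenitors (srNMPs) of the same study. Its members were chosen by their labels: 2 RABC libraries, 1 of H1 and 1 of HUES9, and 4 srNMP libraries, 1 of each line at passage 8 and 1 of each line at passage 25, which makes 6 of the 15 libraries of the series. H1 and HUES9 are established human embryonic stem cell lines, and the genotype of all 6 libraries is given as WT. The labels call the RABC cells neuron progenitors and give neural induction as the treatment of all 6 libraries, the srNMPs included; they leave the letters RABC unexplained and do not say from which passage the inductions were started. The study derived srNMPs from both lines and then made neurons and skeletal muscle from them.

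Neuromesodermal progenitors are cells of the embryonic tail bud that feed both the spinal cord and the paraxial mesoderm, and FGF and WNT signals hold them in that state. When they leave it for the neural tube, FGF signalling is lost and retinoic acid signalling begins, and the dorsal part of the tube is patterned by BMP and WNT proteins from the roof plate. Dorsal progenitors of the cord are known by PAX3, PAX7, MSX1, MSX2 and ZIC factors, and the most dorsal of them by OLIG3.

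RNA levels are FPKM, fragments scaled for gene length and library size, as the authors listed them. Values are given for RABC in the order H1 and HUES9, and for srNMPs in the order H1 passage 8, H1 passage 25, HUES9 passage 8 and HUES9 passage 25. A change is the difference of log2(FPKM + 1) between RABC and srNMPs ± its standard error, with the cell line as a covariate, so a positive change is a higher level in RABC; adding 1 understates the change of weak genes. A gene was called when the adjusted p of limma's moderated test was under 0.05. The 2 groups of a gene are said to overlap unless both RABC libraries lie above, or both below, all 4 srNMP libraries. In RNA from whole cultures, fewer cells of a type and less RNA per cell cannot be told apart. Nothing in the labels ties a library to a separate culture within a line, so the p-values measure the spread between these samples, which may in part be technical.

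The 6 libraries were of like depth, 0.973 to 1.028 of their mean as estimated from the lowest values, with 10835 to 11354 genes at 1 FPKM or more in each. Among srNMPs, 2 libraries stood apart in marker genes. HUES9 at passage 25 alone carried the ventral progenitor factors DBX1, at 66 FPKM, and NKX6-1, at 22, and it also had PAX6 at 24.5 and the neuronal gene STMN2 at 72; the other srNMP libraries had at most 0.157, 0.944, 0.324 and 13.3 of these. H1 at passage 8 had little of the tail bud factors CDX2 and CDX4, at 0.00615 and 0 FPKM. Of the genes described below, ACTA2, BMP2, BMP4, DCC, DCX, EN1, ETV4, FABP7, FGFR2, HES5, HOXA4, HOXA5, HOXD4, ID4, IFITM3, IRX5, JAG1, KRT8, KRT18, LHX5, LIN28A, NES, NEUROG1, NEUROG2, NHLH2, PAX2, PAX6, RARA, RARRES2, RHBDL3, SP5, STMN2, STMN4, TAGLN, TBXT, TPPP3, TUBB3 and WNT4 were not called with all 6 libraries and were called, in the same direction, without HUES9 passage 25, which ended none of the 116 calls. Without H1 passage 8, CDX2, CDX4, GSX1 and RARG were called lower in addition and SCUBE2 higher, and the calls of ARID3A, B2M, CACNG7, CD74, DUSP6, ETV5, HES3, IFITM2, IGFBPL1, IL17RD, NTRK2, PGM5, RARB, ROBO3, ROR2, SEMA6B, SLC30A8, SPRY4 and WNT7B were lost. PAX6 and STMN2 were among the genes that set HUES9 passage 25 apart, and CDX2 and CDX4 did so for H1 passage 8. Other listed genes, among them DCX, HES5, NEUROG1, NHLH2, RARRES2, RHBDL3, STMN4 and TUBB3, were also highest among srNMPs in HUES9 passage 25. For these genes the fit without that library is no separate support.

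Of 12238 genes that reached 1 FPKM in any of the 6 libraries, 116 were called (0.948%), 47 higher (0.384%) and 69 lower (0.564%) in RABC. The change was in the same direction in both lines for all 116, and in 113 the groups did not overlap; by that rule alone, which is a description and no test, 1632 genes (13.3%) were higher and 1772 (14.5%) lower. The exceptions among called genes were MSX2, CACNG7 and IFITM2, whose levels also differ between the lines. At an unadjusted p under 0.05 there were 1980 of the 12238 genes, 952 higher and 1028 lower. The count for each gene list below is to be held against these counts and shares over all tested genes. The calls depended on single libraries: there were 605 genes without the HUES9 passage 25 library, among them all 116, 234 without both passage 25 libraries, 26 without both passage 8 libraries, 41 without the HUES9 passage 8 library, and 0 without the H1 RABC library or without the H1 passage 25 library. Without the H1 RABC library 664 genes remained at an unadjusted p under 0.05, and without the H1 passage 25 library 1214. With 1 mean for each passage the fit called 7 genes, FGF8, PGM5, FRZB, LAMP5, NPPC, CLDN1 and HOXA6, all of them among the 116. The plot of change against level shows where the called genes lie.

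**Figure D1:**
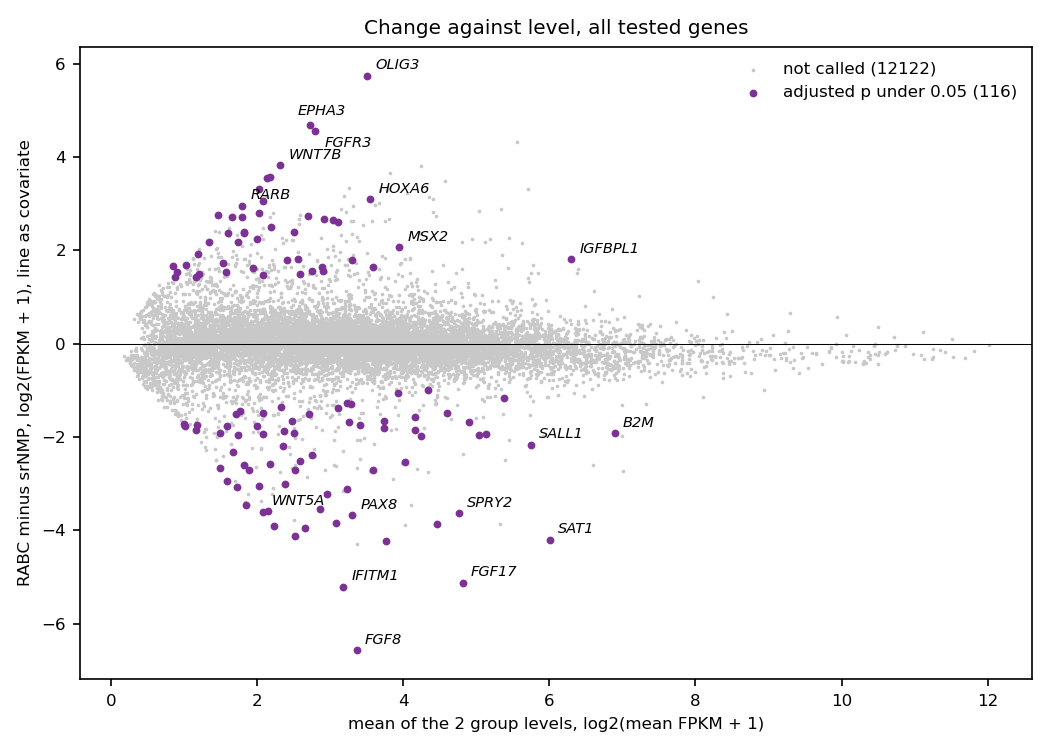
Change of every tested gene (y axis, RABC minus srNMP on the log2(FPKM + 1) scale, cell line as covariate) against the mean of its 2 group levels (x axis, log2 of mean FPKM + 1); purple points are the 116 genes with adjusted p under 0.05, grey points the rest. OLIG3 lies highest at 5.74 and FGF8 lowest at -6.57, and many grey points reach changes as large as called ones at the same level.

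The largest fall of the comparison was that of an FGF gene. FGF8, the ligand of the tail bud and of other signalling centres, had 0 and 0.0464 FPKM after RABC against 71.4, 80.8, 171 and 86.3 in srNMPs. Both RABC libraries were far below every srNMP library, and the change was -6.57 ± 0.31 (adjusted p = 0.00371, the smallest of the comparison). FGF17, a ligand of the same subfamily, had 0.411 and 8.8 FPKM after RABC against 78.6, 139.7, 243 and 100.3 in srNMPs, a change of -5.12 ± 0.59 (adjusted p = 0.0268). Here the HUES9 RABC library kept a measurable level and the H1 library almost none. The other tested ligands, FGF9, FGF13, FGF18 and FGF19, had changes between -0.64 and -0.11, and none was called.

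Negative feedback genes and ETS factors that FGF signalling through ERK is known to induce fell with the ligands: 6 of 13 were called lower and 0 higher, 8 lay below all srNMP libraries, and their median change was -1.93 against 0.00 over all tested genes. Without the H1 passage 8 library 2 were called lower, and without the HUES9 passage 8 library 1. DUSP6, a phosphatase that inactivates ERK, had 0.483 and 11.9 FPKM after RABC against 34.8, 62.9, 98.1 and 72.5 in srNMPs (change -3.87 ± 0.53, adjusted p = 0.0353). SPRY2, a Sprouty inhibitor of receptor signalling, had 1.77 and 14.2 FPKM after RABC against 61, 67.1, 102 and 93.5 in srNMPs (change -3.63 ± 0.40, adjusted p = 0.0268). The levels in H1 RABC were below those in HUES9 RABC for both genes, and the groups were well apart. SPRY1 had 1.1 and 3.42 FPKM after RABC against 27.8, 20.9, 19.7 and 35.6 in srNMPs (adjusted p = 0.0268), and SPRY4 0.0197 and 1.93 FPKM after RABC against 9.56, 10.6, 8.74 and 8.52 in srNMPs (adjusted p = 0.0409). ETV5, an ETS factor, had 0.0623 and 3.7 FPKM after RABC against 21.2, 16.6, 23.3 and 18.6 in srNMPs (adjusted p = 0.0353). Its close relative ETV4 had 0.0833 and 5.02 FPKM after RABC against 17.8, 25.6, 19.1 and 26 in srNMPs, a change of -3.16 ± 0.52 that did not pass the test (adjusted p = 0.0625), although its groups did not overlap. IL17RD, a membrane antagonist of FGF receptors, kept the highest level of the called feedback genes, 14.2 and 19.6 FPKM after RABC against 79.9, 57.9, 79.8 and 52.1 in srNMPs (change -1.93 ± 0.25, adjusted p = 0.0353). In 12 of the 13 genes HUES9 RABC exceeded H1 RABC. Examples are 0.483 against 11.9 FPKM for DUSP6 and 0.0623 against 3.7 for ETV5. Of the 13 genes, 8 had an unadjusted p under 0.05 for a difference of the change between the lines, and none passed adjustment.

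Among the receptors FGFR3 rose while the others did not pass the test. FGFR3, a receptor of neural progenitors and glial precursors, had 58 and 14.3 FPKM after RABC against 0.0871, 0.345, 0.111 and 0.609 in srNMPs (change 4.56 ± 0.47, adjusted p = 0.0268). FGFR2 had 28.2 and 14.5 FPKM after RABC against 4.02, 6.15, 2.42 and 6.53 in srNMPs (change 1.95 ± 0.36, adjusted p = 0.0799), also without overlap. FGFR1, the most abundant receptor of srNMPs, had 30.4 and 40.8 FPKM after RABC against 52.8, 50.1, 34.6 and 57.5 in srNMPs (change -0.43 ± 0.26, adjusted p = 0.449), and the groups overlapped. FGFR4 and FGFRL1, which lacks a kinase domain, had changes of 0.34 and -0.46 and were not called. The plot of FGF genes by library shows the level of ligands, feedback genes and receptors in each library.

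**Figure D2:**
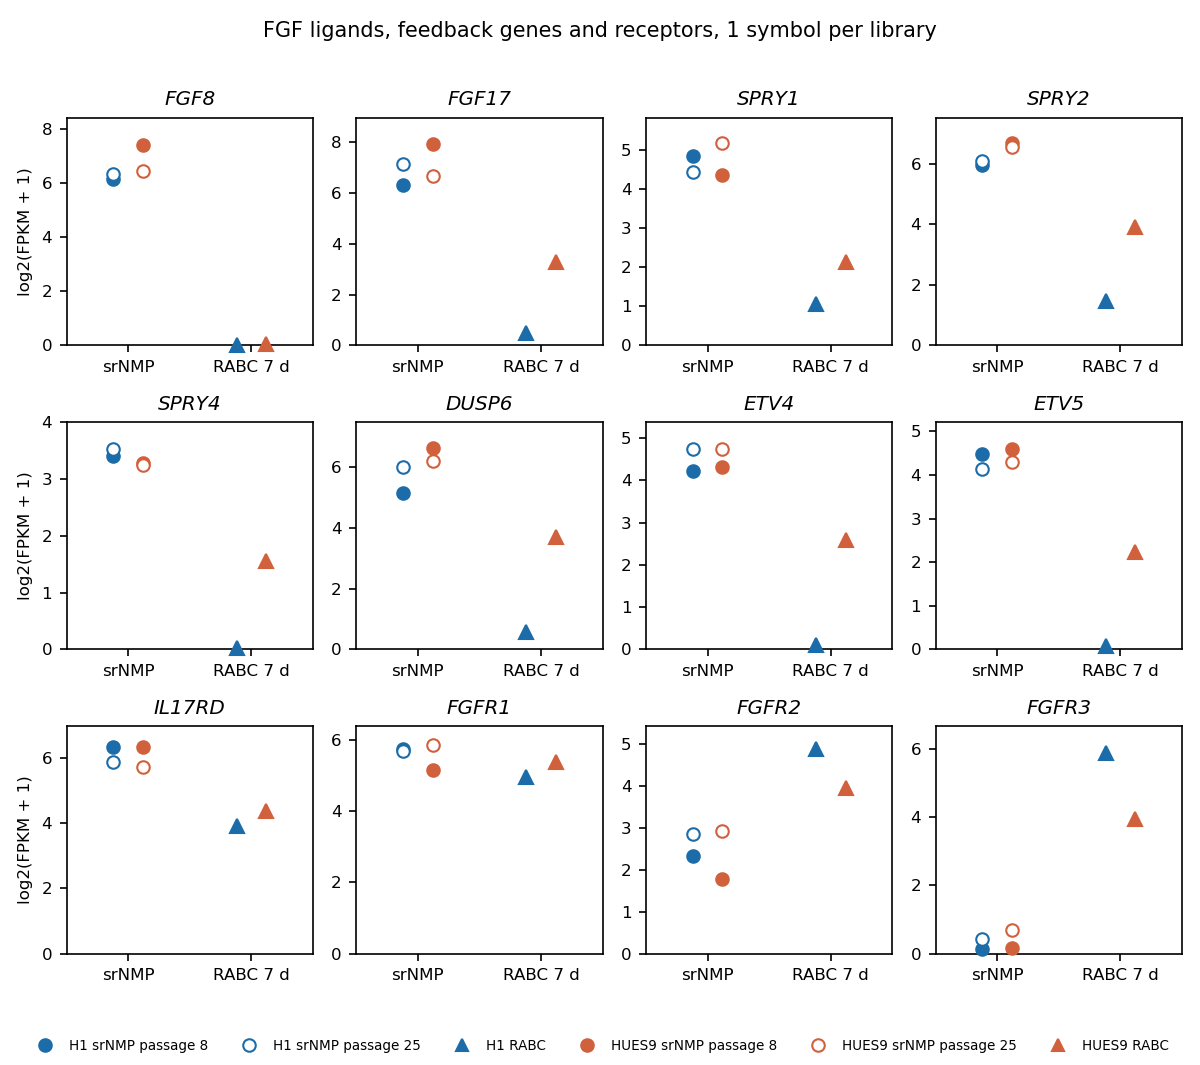
Level of 12 FGF pathway genes in each library, as log2(FPKM + 1) on the y axis of each panel; filled circles are srNMPs at passage 8, open circles srNMPs at passage 25 and triangles RABC, blue for H1 and orange for HUES9. FGF8 and FGF17 and the feedback genes are lower in both triangles than in all circles, the HUES9 triangle lies above the H1 triangle for the feedback genes shown, and FGFR2 and FGFR3 are higher in both triangles.

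Other genes of the tail bud were lower too. Of 17 tail bud genes 12 were tested, 4 were called lower and 0 higher, 6 lay below all srNMP libraries and 1 above, and the median change was -2.77; FGF8 and FGF17 are 2 of the 4 called. HES3, a repressor of the HES family, had 0.358 and 1.74 FPKM after RABC against 14.8, 21.4, 48.2 and 14 in srNMPs (change -3.55 ± 0.47, adjusted p = 0.0353). WNT5A, a ligand that mostly acts without beta-catenin, had 0.121 and 0.404 FPKM after RABC against 2.85, 5.93, 22.9 and 17.2 in srNMPs (change -3.05 ± 0.43, adjusted p = 0.0387). TBXT, the T-box factor that defines the tail bud with SOX2, had 0 and 0.0548 FPKM after RABC against 2.11, 1.87, 13.4 and 7.39 in srNMPs, a change of -2.48 ± 0.44 that missed the threshold (adjusted p = 0.0703). All 4 srNMP libraries exceeded both RABC libraries for HES3, WNT5A and TBXT. CDX2, a homeobox factor of posterior growth, had 0 and 0.224 FPKM after RABC against 0.00615, 11.5, 39 and 21.8 in srNMPs, so that H1 at passage 8 was as low as RABC (adjusted p = 0.22). CDX4 and NKX1-2 showed the same order, with 0 and 0.256 FPKM after RABC against 0, 6.06, 37.7 and 28.8 in srNMPs for CDX4 and 0.0176 and 0.201 FPKM after RABC against 0, 2.69, 11.2 and 4.28 in srNMPs for NKX1-2, and neither was called. H1 passage 8 was thus near 0 in CDX2, CDX4 and NKX1-2. Of the 4 called genes it had 71.4 FPKM of FGF8, 78.6 of FGF17, 14.8 of HES3 and 2.85 of WNT5A. The calls therefore do not speak for CDX2, CDX4 and NKX1-2. Without the H1 passage 8 library 6 tail bud genes were called lower, as without HUES9 passage 25; 1 was without HUES9 passage 8 and 2 without HUES9 RABC, where the median was -1.74. SP5, a direct WNT target, had 10.9 and 13.5 FPKM after RABC against 25.1, 52.9, 45.2 and 16 in srNMPs (adjusted p = 0.251). SALL4, which srNMPs share with stem cells, had a change of -0.48 and was not called.

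Dorsal identity was read from the 5 markers named for the comparison. OLIG3 had 179.7 and 23.3 FPKM after RABC against 0.038, 0.568, 0.35 and 0.0658 in srNMPs, a change of 5.74 ± 0.60 (adjusted p = 0.0268; 0.055 in a fit of 13 libraries, and 0.0116 to 0.166 over the alternatives). It was at or near 0 in every srNMP library and high in both RABC libraries. MSX1, a homeobox gene induced by BMP, had 126 and 37.2 FPKM after RABC against 0.916, 19.3, 17.4 and 11 in srNMPs; the groups did not overlap, but srNMPs varied widely and the change of 2.86 ± 1.03 did not pass the test (adjusted p = 0.248). PAX3 had 49.9 and 21.7 FPKM after RABC against 29.4, 17.4, 5.93 and 2.21 in srNMPs (change 1.68 ± 0.42, adjusted p = 0.14). Within each line PAX3 was higher in RABC than in srNMPs, but H1 srNMPs at passage 8 exceeded HUES9 RABC. ZIC1 had 123 and 82.5 FPKM after RABC against 113, 75.2, 81.4 and 34.4 in srNMPs (change 0.52 ± 0.36, adjusted p = 0.509), and the groups overlapped. ID3, an inhibitor of bHLH factors that BMP induces, had 211 and 77.8 FPKM after RABC against 40.9, 105, 171 and 84.6 in srNMPs (change 0.53 ± 0.62, adjusted p = 0.696). It was highest of all in H1 RABC and lowest of its line in HUES9 RABC. Of the 5 markers 1 was thus called, 2 lay above all srNMP libraries, and ZIC1, PAX3 and ID3 were already abundant in at least 1 srNMP library.

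**Figure D3:**
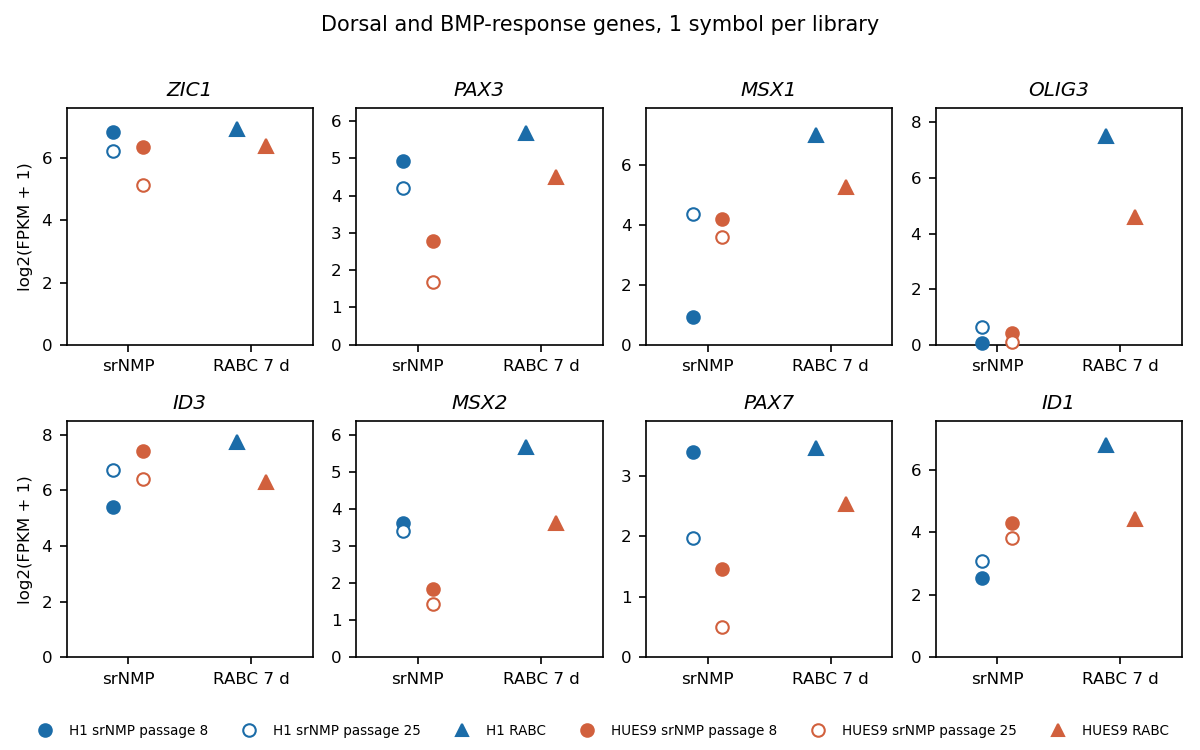
Level of the 5 dorsal markers and of MSX2, PAX7 and ID1 in each library, as log2(FPKM + 1) on the y axis of each panel, with the symbols and colours of the plot of FGF genes. OLIG3 and MSX1 are higher in both RABC triangles than in all srNMP circles, and ZIC1 and PAX3 overlap between the groups. ID3 is highest in H1 RABC, and in HUES9 RABC it lies below the HUES9 circles but above H1 at passage 8.

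Of 21 dorsal progenitor genes 18 were tested, 3 were called higher and 0 lower, 7 lay above all srNMP libraries and 0 below, and the median change was 1.47. Without the HUES9 passage 25 library 6 were called higher and the median was 1.32. Without H1 passage 8, 2 were called higher and 1 lower, without HUES9 passage 8, 2 higher, and without H1 passage 25, 0. OLIG3 and MSX2 were among the 3 called with all 6 libraries. MSX2, a partner of MSX1, had 50.8 and 11.4 FPKM after RABC against 11.4, 9.68, 2.62 and 1.74 in srNMPs (change 2.07 ± 0.19, adjusted p = 0.0223); each RABC library exceeded the srNMPs of its own line, and HUES9 RABC was level with H1 at passage 8. The zinc finger genes ZIC2, ZIC4 and ZIC5 had changes of -0.19, 0.18 and 0.09 and were not called. PAX7, a partner of PAX3, had 10.1 and 4.82 FPKM after RABC against 9.57, 2.94, 1.74 and 0.42 in srNMPs (adjusted p = 0.29). IRX5, a homeobox gene of the intermediate and dorsal tube, had 10.1 and 10.6 FPKM after RABC against 3.62, 1.76, 0.782 and 2.18 in srNMPs (change 1.96 ± 0.34, adjusted p = 0.0701), without overlap.

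Of the genes that divide the dorsal cord into progenitor domains, ATOH1 was high in H1 RABC, and NEUROG1 and NEUROG2 in both lines. ATOH1, the factor of the most dorsal interneuron progenitors, had 16.9 and 0.406 FPKM after RABC against 0.276, 0.171, 0 and 0 in srNMPs (adjusted p = 0.209), a level reached in H1 only. NEUROG1 and NEUROG2, which follow ventral to ATOH1, were high in both lines: NEUROG1 had 16.9 and 8.4 FPKM after RABC against 0.644, 0.0345, 0.18 and 5.68 in srNMPs (adjusted p = 0.164). NEUROG2 had 62.7 and 48.7 FPKM after RABC against 1.72, 3.65, 10.7 and 11.6 in srNMPs, a change of 3.10 ± 0.48 just short of the threshold (adjusted p = 0.052). GSX1, of domains further ventral, had 0.0155 and 0.0154 FPKM after RABC against 0, 3.41, 3.0 and 2.82 in srNMPs (adjusted p = 0.276), so that 3 of 4 srNMP libraries exceeded RABC. The roof plate genes LMX1A, GDF7 and RSPO1 stayed under 1 FPKM in all 6 libraries and were not tested. WNT1, another roof plate gene, reached 2.46 FPKM in H1 RABC and was listed at 0 in HUES9 RABC. In 16 of the 18 tested dorsal genes the level in H1 RABC exceeded that in HUES9 RABC.

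The sum of the ventral progenitor genes was 0.163 to 0.751 FPKM in RABC and 0.383 to 94.4 in srNMPs, where the top srNMP value is the HUES9 passage 25 library. SHH was listed at 0 in all 6 libraries, OLIG2 at 0 in both RABC libraries, and NKX2-2 did not exceed 0.0231 FPKM. The hedgehog targets PTCH1 and GLI1 had 18.9 and 26.8 FPKM after RABC against 11.6, 10.7, 9.03 and 29.995 in srNMPs for PTCH1 and 2.75 and 2.74 FPKM after RABC against 0.349, 0.928, 0.771 and 2.42 in srNMPs for GLI1, and neither was called.

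Of 15 BMP-responsive genes 13 were tested, MSX2 was called higher, 7 lay above all srNMP libraries and 0 below, and the median change was 0.87. ID1, a direct BMP target, had 108 and 20.7 FPKM after RABC against 4.8, 7.41, 18.7 and 13.2 in srNMPs (change 2.17 ± 0.74, adjusted p = 0.23); both RABC libraries were higher than all srNMPs, by much in H1 and by little in HUES9. ID4 had 25.7 and 19.1 FPKM after RABC against 3.08, 3.12, 5.38 and 15.5 in srNMPs (adjusted p = 0.159). ID2, in contrast, had 67.9 and 34.2 FPKM after RABC against 98.5, 122, 67.4 and 42.6 in srNMPs (change -0.66 ± 0.23, adjusted p = 0.23), and was not called. The inhibitory SMADs that BMP induces were low and higher in both RABC libraries: SMAD6 had 2.1 and 1.55 FPKM after RABC against 0.302, 0.636, 0.378 and 0.906 in srNMPs, and SMAD7 2.56 and 1.68 FPKM after RABC against 0.436, 0.518, 0.802 and 1.2 in srNMPs. Neither passed (adjusted p = 0.176 and 0.194). In H1 the median change of the list was 1.52 and in HUES9 0.43, and 12 of 13 genes were higher in H1 RABC than in HUES9 RABC. BMP ligands were not called in either direction with all 6 libraries. BMP4 had 0.648 and 3.47 FPKM after RABC against 9.82, 19.3, 11.1 and 4.67 in srNMPs (change -2.03 ± 0.58, adjusted p = 0.18), and BMP2 had 0 and 0.0554 FPKM after RABC against 1.28, 1.69, 1.51 and 1.08 in srNMPs (adjusted p = 0.0703), both below all srNMPs. BMP7, the most abundant ligand of HUES9 RABC, had 3.01 and 11.2 FPKM after RABC against 0.967, 5.25, 5.15 and 14.5 in srNMPs and overlapped. CHRD, a secreted BMP antagonist, had 4.09 and 1.29 FPKM after RABC against 0.217, 0.713, 0.316 and 0.923 in srNMPs (adjusted p = 0.202). Of 12 tested ligands, receptors and antagonists 0 were called by limma, and 3 had an unadjusted p under 0.05.

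Retinoic acid enters the nucleus, binds RAR and RXR receptors and switches on genes with a paired half-site in their promoters; RARB is the textbook example. RARB had 14.9 and 3.96 FPKM after RABC against 0.0614, 0.0321, 0.0835 and 0.439 in srNMPs, a change of 2.96 ± 0.43 (adjusted p = 0.0421; 0.0555 after rescaling to equal totals, and 0.0153 to 0.292 over the alternatives). All srNMP libraries were near 0 and both RABC libraries were clearly above. The 250 bases before the RARB start in RefSeq (GRCh38.p14, chr3:25428013-25428262, plus strand, outside the exons of the GENCODE annotation) hold 1 match to the DR5 retinoic acid response element, a repeated half-site with a 5-base spacer, searched on both strands and shown in capitals at chr3:25428210-25428226, with 36 bases between it and the start. The CYP26A1 promoter, shown for contrast, holds a match on the minus strand at chr10:93073803-93073819, with 73 bases between it and the start. The 250 bases before that start overlap exons of the annotation, so only the site and its flanks are given. Whether the site itself lies in an exon was not tested.
RARB: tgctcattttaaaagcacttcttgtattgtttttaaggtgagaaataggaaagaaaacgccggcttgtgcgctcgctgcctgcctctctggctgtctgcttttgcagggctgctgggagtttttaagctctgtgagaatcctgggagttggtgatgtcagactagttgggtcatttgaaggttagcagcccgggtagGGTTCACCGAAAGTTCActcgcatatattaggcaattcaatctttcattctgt
CYP26A1: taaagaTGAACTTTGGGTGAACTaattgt
Such a match stands in 31 of 35116 RefSeq promoter windows of 250 bases before to 50 after a start (0.0883%), in 2 of the 16 retinoic acid genes with a window, and among genes called higher in 1 of 33 with a window, RARB itself. It stands in 0 of the 52 windows of genes called lower. The match is a description of the letters and shows no binding. CYP26A1, the enzyme that breaks retinoic acid down and a well-known target of it, had 0.125 and 0.147 FPKM after RABC against 0.0673, 0.141, 0.0666 and 0.105 in srNMPs. It was near 0 in all 6 libraries and was not tested, so the 2 genes with the match differed in level.

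Of 18 retinoic acid genes 12 were tested, RARB was called higher and 0 lower, 7 lay above all srNMP libraries and 1 below, and the median change was 0.24, or 0.37 without HUES9 passage 25. DHRS3, a reductase that retinoic acid induces, had 9.48 and 1.25 FPKM after RABC against 0.0229, 0.144, 0.0681 and 0.489 in srNMPs (change 2.06 ± 0.53, adjusted p = 0.146), without overlap. RARA had 11.4 and 6.13 FPKM after RABC against 4.63, 2.67, 1.16 and 3.16 in srNMPs (adjusted p = 0.125), also without overlap. RARG, the receptor of the tail bud, had 0.631 and 1.25 FPKM after RABC against 0.532, 7.5, 11.7 and 7.31 in srNMPs (change -1.67 ± 0.67, adjusted p = 0.29); 3 srNMP libraries were high and H1 passage 8 was as low as RABC. STRA6, a membrane transporter of retinol, had 0.264 and 1.16 FPKM after RABC against 3.12, 21, 9.9 and 9.32 in srNMPs (change -2.60 ± 0.62, adjusted p = 0.128), below all srNMPs. The binding proteins CRABP1 and CRABP2 were abundant throughout, with 488 and 162 FPKM after RABC against 2317, 605, 26.9 and 309 in srNMPs for CRABP1, and did not pass the test. ALDH1A2, the enzyme that makes retinoic acid in the trunk, did not exceed 0.258 FPKM in any of the 6 libraries.

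A composite SMAD element that BMP-responsive genes can carry (GGCGCC and GTCT with 5 bases between them, both strands) stands in 36 of the 35116 windows (0.103%), in 0 of the 15 windows of BMP-responsive genes, and among genes called higher in FGFR3 alone. It did not occur in the 52 windows of genes called lower.

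HOX genes record position along the body axis, with low paralog numbers anterior and high ones posterior. Of the 15 genes of paralogs 1 to 5, 0 were called by limma, 6 had an unadjusted p under 0.05, 6 lay above all srNMP libraries and 0 below, and the median change was 0.75, or 0.24 without the H1 RABC library. Of 12 genes of paralogs 6 to 9, HOXA6 was called higher, 3 lay above and 1 below, and the median was 0.68; it was 0.29 without H1 passage 8, 0.36 without H1 RABC and 0.40 without HUES9 passage 25. HOXA6 had 41.3 and 22.9 FPKM after RABC against 3.62, 5.95, 0.889 and 2.16 in srNMPs (change 3.10 ± 0.28, adjusted p = 0.0223), and its neighbour HOXA5 71.3 and 35.9 FPKM after RABC against 4.29, 14.3, 9.34 and 3.36 in srNMPs (change 2.73 ± 0.51, adjusted p = 0.0799). Neighbouring HOX genes and their antisense transcripts overlap, and the sources used here do not say whether strand was used in counting, so reads of these may not be told apart. HOXD4 had 108 and 91.2 FPKM after RABC against 11.4, 18.5, 33 and 29.4 in srNMPs, a change of 2.16 ± 0.33 at the threshold (adjusted p = 0.0502). After quantile normalization HOXA4 and HOXD4 were called as well. HOXA7, next to HOXA6, had 47.4 and 25.6 FPKM after RABC against 33.7, 56, 63.6 and 19.6 in srNMPs and overlapped. Within the HOXB cluster HOXB1, HOXB5 and HOXB6 had changes of 0.93, 0.75 and 0.80, and HOXB4, HOXB7 and HOXB8 of -0.88, -0.94 and -0.63; none was called. HOXB9, the most abundant of them, had 284 and 187 FPKM after RABC against 389, 375, 269.9 and 203 in srNMPs. Paralog 10 genes were almost absent from H1: HOXC10 had 0.143 and 26 FPKM after RABC against 0, 0.661, 14.6 and 8.01 in srNMPs, higher in HUES9 than in H1 in both states, and HOXA10 had 0.222 and 7.84 FPKM after RABC against 0.0109, 0.571, 3.38 and 3.43 in srNMPs. The plot of HOX changes sets HOX genes side by side.

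**Figure D4:**
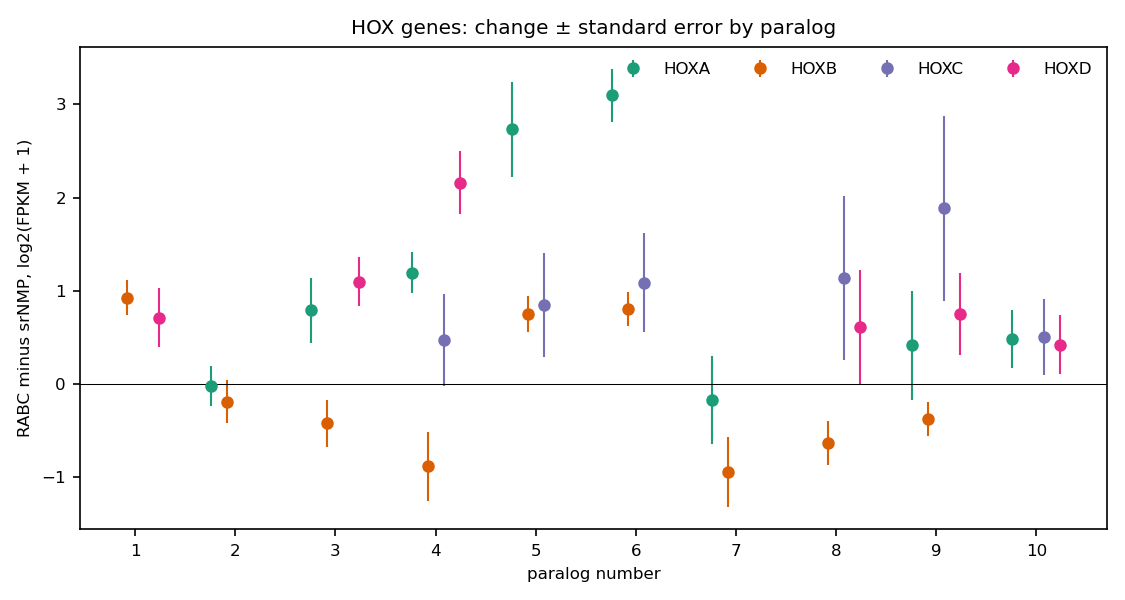
Change of tested HOX genes (y axis, RABC minus srNMP on the log2(FPKM + 1) scale; bars are ± 1 standard error) against its paralog number (x axis), coloured by cluster. HOXA5 and HOXA6 are the highest at 2.73 and 3.10, HOXA7 lies near 0, and HOXB genes lie on both sides of 0.

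WNT ligands moved in both directions. Of 13 ligands 9 were tested, 1 was called higher and 2 lower, 5 lay above all srNMP libraries and 2 below. WNT7B, a ligand of the neural tube, had 30.6 and 8.09 FPKM after RABC against 0.0534, 0.105, 0.033 and 0.687 in srNMPs (change 3.83 ± 0.48, adjusted p = 0.0336). WNT5B, like WNT5A, was lower, with 0.94 and 2.45 FPKM after RABC against 5.93, 6.06, 12.6 and 10.9 in srNMPs (change -1.87 ± 0.16, adjusted p = 0.0217). WNT4 had 11.1 and 1.39 FPKM after RABC against 0.00575, 0.00600, 0 and 0.00598 in srNMPs (adjusted p = 0.095) and WNT3 had 18.9 and 7.77 FPKM after RABC against 3.98, 3.11, 4.05 and 4.4 in srNMPs (adjusted p = 0.114). Both were higher in each RABC library than in all srNMPs without passing the test, and far higher in H1 RABC. No WNT target gene was called: of 15 tested 0 passed in limma, 4 had an unadjusted p under 0.05, and the median change was -0.07, or 0.02 after rescaling to equal totals. AXIN2, the general feedback target, had 51.1 and 33.8 FPKM after RABC against 24.9, 33.9, 22.9 and 21.1 in srNMPs (change 0.69 ± 0.19, adjusted p = 0.153), and LEF1 had 24 and 36 FPKM after RABC against 32.8, 47.6, 54.7 and 26.3 in srNMPs (adjusted p = 0.595). FRZB, a secreted protein that binds WNT ligands, named after its values were seen, had 20.7 and 15.5 FPKM after RABC against 1.92, 2.21, 1.67 and 2.1 in srNMPs (change 2.67 ± 0.18, adjusted p = 0.00906). ROR2, a receptor of WNT5A also named after its values were seen, had 2.13 and 2.04 FPKM after RABC against 10.6, 12.3, 7.12 and 6.02 in srNMPs (change -1.65 ± 0.21, adjusted p = 0.0353).

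Neural progenitor genes were present in both states. Of 21 genes 0 were called by limma, 14 had an unadjusted p under 0.05, and 9 lay above all srNMP libraries and 3 below. Over all tested genes 13.3% lay above and 14.5% below, so the 3 below are near that share. The median change was 0.95, or 0.52 without the H1 RABC library. Without the HUES9 passage 25 library 9 were called higher and 1 lower. PAX6 was among the genes that set that library apart, so this count is no separate support. Without each other srNMP library 0 were called higher. SOX2 had 135 and 139.8 FPKM after RABC against 213, 165, 161 and 147 in srNMPs (change -0.30 ± 0.19, adjusted p = 0.464). NES, an intermediate filament of progenitors, had 447 and 375 FPKM after RABC against 157, 152, 129.6 and 222 in srNMPs (change 1.33 ± 0.25, adjusted p = 0.0799), without overlap. PAX6, a factor of neural progenitors, had 17.7 and 21.6 FPKM after RABC against 0.178, 0.161, 0.324 and 24.5 in srNMPs (adjusted p = 0.263), with HUES9 passage 25 above both RABC libraries and the other srNMPs near 0; its change was 2.98, and 4.04 without that library. HES5, a NOTCH effector, had 83.5 and 87.6 FPKM after RABC against 11.5, 2.52, 7.22 and 51.3 in srNMPs, a change of 2.88 ± 0.85 (adjusted p = 0.187), and 3.57 without the HUES9 passage 25 library (adjusted p = 0.0211, and 0.0126 to 0.935 over the alternatives). For PAX6 and HES5 that library was the highest of the srNMPs, so the larger change without it is no separate support. JAG1, a NOTCH ligand, had 65.2 and 58.3 FPKM after RABC against 22.7, 10.8, 4.94 and 17.6 in srNMPs (adjusted p = 0.114). FABP7, a lipid-binding protein of radial glia, was lower in both RABC libraries than in all srNMPs, with 4.69 and 28.7 FPKM after RABC against 47, 29, 80.1 and 240.2 in srNMPs (change -2.49 ± 0.45, adjusted p = 0.0758).

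Of 13 tested genes of the proneural list the only one called higher was OLIG3, the dorsal marker already counted above. Of the list 0 were called lower and 7 lay above all srNMP libraries. The median change was 2.27, or 1.33 without the H1 RABC library. Without the HUES9 passage 25 library 9 were called higher, without each passage 8 library 1, and without H1 passage 25, 0. NEUROG1 and NHLH2 were highest among srNMPs in HUES9 passage 25, so the count without that library is no separate support. NHLH2, a bHLH gene of newborn neurons, had 14.9 and 6.96 FPKM after RABC against 0.358, 0.161, 0.201 and 2.59 in srNMPs (adjusted p = 0.0849). Of 18 early neuronal genes 0 were called by limma, 13 had an unadjusted p under 0.05, 10 lay above all srNMP libraries and 2 below, and the median was 1.15. Without HUES9 passage 25, 11 were called higher and 0 lower, and without each other srNMP library 0 were called. DCX, STMN2 and TUBB3 were highest among srNMPs in HUES9 passage 25, so the count without it is no separate support. STMN2, a tubulin-binding protein of growing axons, had 140.0 and 86.3 FPKM after RABC against 13.3, 3.26, 2.47 and 72 in srNMPs (change 3.32 ± 1.20, adjusted p = 0.248). Without HUES9 passage 25 the change was 4.38 (adjusted p = 0.0133, and 0.013 to 0.935 over the alternatives). STMN2 was among the genes that set that library apart, so this larger change is no separate support. DCX had 25.9 and 14.8 FPKM after RABC against 3.28, 0.414, 0.24 and 8.26 in srNMPs (adjusted p = 0.192). TUBB3 was abundant in all 6, with 569 and 290.2 FPKM after RABC against 203, 213, 131 and 300.2 in srNMPs (adjusted p = 0.258). The neurofilament genes NEFL and NEFM lay below all srNMPs, with 31.7 and 36.7 FPKM after RABC against 61, 50.9, 64.3 and 52.1 in srNMPs for NEFL (change -0.72 ± 0.18, adjusted p = 0.136). The sum of the early neuronal genes was 653 to 1118 FPKM in RABC and 347 to 661 in srNMPs; its part in the results on axon genes was not tested.

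Of 20 factors of postmitotic dorsal interneurons 13 were tested and PAX8 was called lower. PAX8 had 0.376 and 3.57 FPKM after RABC against 43.8, 24.8, 30.8 and 27.6 in srNMPs (change -3.68 ± 0.45, adjusted p = 0.0333). Its relative PAX2 had 0.753 and 3.2 FPKM after RABC against 27.4, 23.9, 14.2 and 8.31 in srNMPs (adjusted p = 0.0861), and both were high in srNMPs of both lines. The name of the list does not tell which cells of the srNMP cultures held them. EN1 and EN2, described below, were likewise lower in both RABC libraries than in all srNMPs, and a link between these genes was not tested. LHX5 had 4.8 and 3.74 FPKM after RABC against 0, 0, 0.0100 and 1.61 in srNMPs (adjusted p = 0.0993) and POU4F1 had 11.9 and 2.76 FPKM after RABC against 4.98, 0.703, 0.236 and 0.248 in srNMPs (adjusted p = 0.15). BARHL1, a target of ATOH1, was found in H1 RABC at 2.91 FPKM and in HUES9 RABC at 0.0589, and was listed at 0 in srNMPs. PRDM13, a dorsal progenitor factor of the cord, had 13.8 and 9.57 FPKM after RABC against 0.0178, 0.0834, 0.0176 and 1.15 in srNMPs (change 3.32 ± 0.37, adjusted p = 0.0268). PTF1A, which acts before PRDM13 in the cord, did not exceed 0.219 FPKM.

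Axon guidance and neurotrophin receptor genes were listed after the values of these data had been seen, so their counts only describe the calls: of 20 tested, 5 were higher and 1 lower, and the median change was 1.49. Without HUES9 passage 25, 10 were called higher, without H1 passage 8 only 1, and without HUES9 passage 8 none, where the median was 1.25. ROBO3, a receptor of commissural axons, had 25 and 15.3 FPKM after RABC against 2.69, 1.77, 1.43 and 4.11 in srNMPs (change 2.62 ± 0.36, adjusted p = 0.0353). EPHA3, an ephrin receptor, had 61 and 13.1 FPKM after RABC against 0.107, 0.0742, 0.0966 and 0.351 in srNMPs, the second largest rise among called genes at 4.68 ± 0.49 (adjusted p = 0.0268). NTRK2, the receptor of BDNF, had 18.2 and 3.66 FPKM after RABC against 0.242, 0.888, 0.11 and 0.297 in srNMPs (adjusted p = 0.0409), and SEMA6B had 12.6 and 4.16 FPKM after RABC against 0.414, 0.123, 0.041 and 0.596 in srNMPs (adjusted p = 0.0356). SEMA3A, a secreted repellent, fell, with 1.81 and 2.0 FPKM after RABC against 19.1, 14.2, 14.8 and 10.1 in srNMPs (change -2.39 ± 0.24, adjusted p = 0.0268). DCC, the netrin receptor, had 31.9 and 21.1 FPKM after RABC against 5.23, 0.496, 0.239 and 3.42 in srNMPs (adjusted p = 0.095).

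Genes of antigen presentation and interferon response, a list also made after seeing the values, held 8 of the genes called lower among 21 tested and 0 called higher; 13 lay below all srNMP libraries and the median was -1.53. IFITM1, a membrane protein that blocks virus entry, had 0.804 and 0.084 FPKM after RABC against 37, 88.5, 68.2 and 28.9 in srNMPs (change -5.20 ± 0.45, adjusted p = 0.0217). Its near copies IFITM2 and IFITM3 had 25.1 and 6.66 FPKM after RABC against 97.4, 89.5, 41.3 and 23.6 in srNMPs (adjusted p = 0.0336) and 28.3 and 46.7 FPKM after RABC against 222, 379, 230.0 and 136 in srNMPs (adjusted p = 0.0523); reads may be split between the copies, so their separate values are uncertain. B2M, the light chain of MHC class I, had 45 and 73 FPKM after RABC against 147, 192, 391 and 210.0 in srNMPs (change -1.92 ± 0.28, adjusted p = 0.0409). PSMB8, a subunit of the immunoproteasome, had 0.0185 and 0 FPKM after RABC against 16.2, 8.1, 3.57 and 4.02 in srNMPs (adjusted p = 0.0353), and CD74 had 0.945 and 1.46 FPKM after RABC against 16.9, 19.9, 7.15 and 12.3 in srNMPs (adjusted p = 0.0336). The class I heavy chains HLA-B and HLA-C, which are also similar in sequence, had changes of 0.33 and -0.02 and were not called. Without the H1 RABC library the median of the list was -0.96 and none was called; without HUES9 RABC 2 were called lower, without H1 passage 8, 3, and without HUES9 passage 8, 4.

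Among the remaining genes with the largest changes, NPPC, which encodes C-type natriuretic peptide, had 14.1 and 15 FPKM after RABC against 0.676, 0.109, 0.214 and 0.288 in srNMPs (change 3.57 ± 0.23, adjusted p = 0.00906), and LAMP5, a membrane protein of neurons, had 13 and 15.1 FPKM after RABC against 0.23, 0.16, 0.0759 and 0.718 in srNMPs (change 3.56 ± 0.24, adjusted p = 0.00906). The lines were close to each other in both genes. RARRES2, which encodes chemerin, had 171 and 138 FPKM after RABC against 1.1, 3.79, 7.0 and 41.6 in srNMPs, a change of 4.33 ± 0.87 that did not pass the test (adjusted p = 0.0924). SAT1, the enzyme that acetylates spermidine and spermine, had 6.56 and 18.8 FPKM after RABC against 92.8, 132, 690.1 and 294 in srNMPs (change -4.20 ± 0.37, adjusted p = 0.0217). HDC, which makes histamine, had 0 and 0.22 FPKM after RABC against 4.89, 14.6, 32.8 and 22.8 in srNMPs (adjusted p = 0.0317), and GAD1, which makes GABA, had 0.12 and 2.43 FPKM after RABC against 12.8, 41.3, 45.3 and 22.1 in srNMPs (adjusted p = 0.0372). Both enzymes were thus found in all srNMP libraries and hardly in H1 RABC. EFEMP1, a matrix protein, had 0.047 and 0.476 FPKM after RABC against 8.86, 15, 50.5 and 25.1 in srNMPs (adjusted p = 0.0223), and SLC30A8, a zinc transporter, had 0.039 and 1.15 FPKM after RABC against 31.3, 32, 24.1 and 9.45 in srNMPs (adjusted p = 0.0353). NPY, a neuropeptide, had 0.305 and 0.152 FPKM after RABC against 1.4, 6.59, 271 and 66.8 in srNMPs; srNMPs spanned a wide range, and the change of -4.30 ± 1.21 was not called (adjusted p = 0.171). ARID3A, a target of let-7 microRNAs, had 4.15 and 5.42 FPKM after RABC against 16.8, 23.9, 16.2 and 17 in srNMPs (change -1.74 ± 0.22, adjusted p = 0.0348). LIN28A, which blocks let-7, had 15.7 and 101 FPKM after RABC against 261, 271, 337 and 235 in srNMPs (change -2.73 ± 0.54, adjusted p = 0.0873); the H1 RABC library was far below all others. IGFBPL1, a relative of IGF-binding proteins, had 157 and 133 FPKM after RABC against 38, 27, 50.4 and 50.8 in srNMPs (change 1.82 ± 0.26, adjusted p = 0.0387).

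Of 14 proliferation genes 0 were called by limma, 1 had an unadjusted p under 0.05, 1 lay above all srNMP libraries and 4 below, and the median change was -0.12. The gene above was MKI67, with 87.4 and 71.3 FPKM after RABC against 63.6, 41.5, 16.2 and 65 in srNMPs (adjusted p = 0.423). AURKA, a mitotic kinase, lay below, with 21.9 and 20.9 FPKM after RABC against 28.9, 33.7, 32.3 and 33.2 in srNMPs (change -0.56 ± 0.16, adjusted p = 0.173), as did the B cyclins CCNB1 and CCNB2, which had changes of -0.44 and -0.26. TOP2A overlapped, with 152 and 124 FPKM after RABC against 135, 98.8, 91.9 and 123 in srNMPs (adjusted p = 0.507). CCND1, a D cyclin, had 36.4 and 71.2 FPKM after RABC against 59.9, 43.4, 39.8 and 51.6 in srNMPs, below the srNMPs of its line in H1 and above them in HUES9. Of 9 tested stress genes 0 were called by limma, and 5 had an unadjusted p under 0.05.

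Among the markers of other cell types below, none was called with all 6 libraries. The sums of 4 lists were lower in both RABC libraries than in every srNMP library. They were pluripotency, surface ectoderm, fibroblast with smooth muscle, and forebrain with midbrain genes. The neural crest genes summed to 24.7 to 59.4 FPKM in RABC and 30.4 to 77 in srNMPs; of 13 tested 0 were called by limma and 2 had an unadjusted p under 0.05. SOX10 was high, at 9.89 FPKM, in HUES9 at passage 8 only, and at most 0.241 in the others. The muscle genes summed to 9.29 to 10.5 FPKM in RABC and 4.42 to 23.4 in srNMPs, with MYF5 listed at 0 in all 6. The sum of the paraxial mesoderm genes was 8.77 to 33.8 FPKM in RABC and 10 to 18 in srNMPs, most of it LFNG, which the neural tube also expresses, and MSGN1 was listed at 0 in both RABC libraries. Pluripotency genes came to 55.1 to 61.6 FPKM in RABC and 100.3 to 112 in srNMPs, and 3 of 4 tested had an unadjusted p under 0.05; POU5F1 and NANOG did not exceed 0.314 and 0.0643 FPKM. The surface ectoderm genes summed to 7.14 to 16.4 FPKM in RABC and 56 to 144 in srNMPs, and 2 of 4 tested had an unadjusted p under 0.05. Without HUES9 passage 25, 2 of them were called lower, and without each other srNMP library 0. The keratins KRT8 and KRT18 of that list were below all srNMPs, with 5.36 and 5.02 FPKM after RABC against 32, 67.7, 41.3 and 17.3 in srNMPs for KRT8 (adjusted p = 0.0682), while KRT5, KRT14 and GRHL2 were at or near 0. Fibroblast and smooth muscle genes summed to 15.9 to 16.1 FPKM in RABC and 26.6 to 72.8 in srNMPs, and 3 of 7 tested had an unadjusted p under 0.05. Without HUES9 passage 25, 2 of these genes were called lower, and without each other srNMP library 0. TAGLN, an actin-binding protein, had 1.82 and 2.03 FPKM after RABC against 17.1, 20.6, 19.6 and 3.77 in srNMPs (change -2.26 ± 0.58, adjusted p = 0.144). ACTA2, smooth muscle actin, had 3.36 and 4.38 FPKM after RABC against 8.51, 21.7, 40.4 and 17.6 in srNMPs (change -2.06 ± 0.45, adjusted p = 0.112). Both lay below all srNMPs. The forebrain and midbrain genes summed to 10.8 to 37.5 FPKM in RABC and 96.3 to 149 in srNMPs, and 3 of 4 tested had an unadjusted p under 0.05. Of these EN1 had 2.28 and 11.6 FPKM after RABC against 52, 40.5, 39.3 and 32.2 in srNMPs (adjusted p = 0.0779). EN2 had 3.48 and 23.5 FPKM after RABC against 72.4, 46.3, 54.6 and 41.5 in srNMPs (adjusted p = 0.14), while OTX2 did not exceed 0.0267 FPKM. Whether cells of these types were present, and what part they had in the results, was not tested.

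Among genes called higher the median change was 2.26 in H1 and 1.97 in HUES9, and 35 of 47 changed more in H1; among genes called lower the medians were -2.19 and -2.02, and 42 of 69 changed more in H1. A test of the difference between lines, which has 2 residual degrees of freedom and 1 RABC library per line, called 0 genes (0%); 306 had an unadjusted p under 0.05, and the smallest adjusted p from limma was 0.164. Across genes, which are not independent replicates, Spearman's rho was 0.952 between the RABC libraries. It was as high, 0.952, between HUES9 RABC and HUES9 at passage 25, and lowest, 0.83, between H1 RABC and HUES9 at passage 8. The plot of changes by line shows each called gene.

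**Figure D5:**
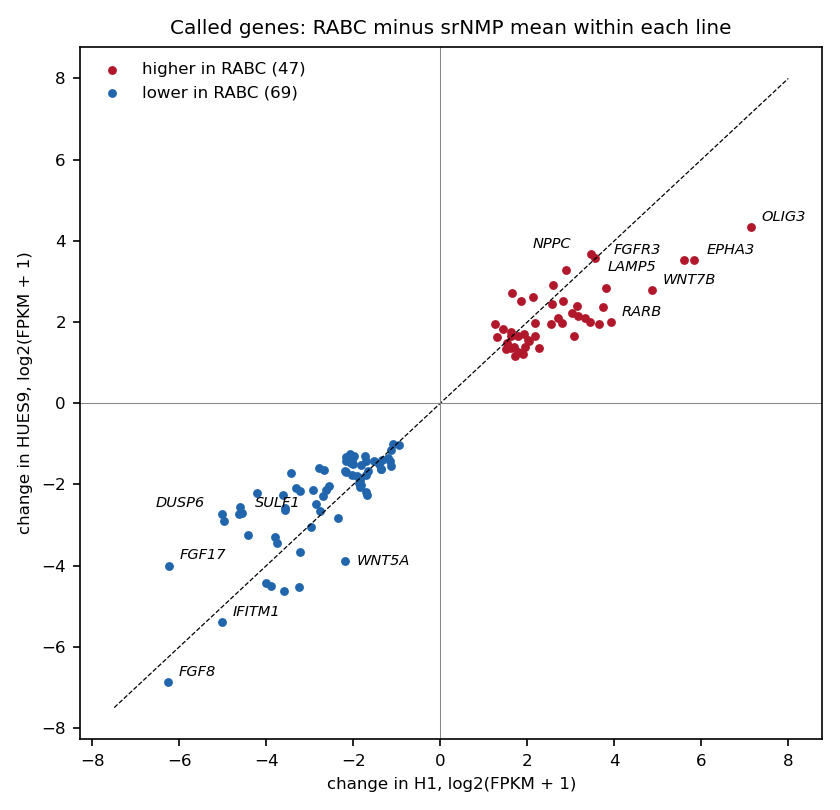
Change of the 116 called genes within H1 (x axis) and within HUES9 (y axis), RABC minus the mean of the 2 srNMP libraries of that line on the log2(FPKM + 1) scale; red is higher and blue lower in RABC, and the dashed line marks equal change. All points lie in the lower left or upper right quadrant, and OLIG3, EPHA3, FGFR3, WNT7B, FGF17 and DUSP6 lie on the side of the larger change in H1.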

How the data were processed

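Messenger RNA was sequenced from TruSeq Stranded mRNA libraries on a NovaSeq instrument, per the labels' protocols. Trimmomatic, HISAT2, HTSeq, Cufflinks and genome build hg18 are named in the submitters' processing notes; their versions, roles and settings are not given in the sources used here. The authors deposited FPKM for 17999 gene symbols, and the values were used as listed. The table has no coordinates, so none are given for genes; promoter sequences and their positions come from RefSeq (GRCh38.p14), matched by symbol for 9907 of the tested genes. 1 column of values matched no sample and was not used.

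Libraries were grouped by their labels. Genes that reached 1 FPKM in any of the 6 libraries were kept, and log2(FPKM + 1) was fitted with limma 3.58.1 in R 4.3.3 with terms for state and cell line (the replicate block), a trend of variance on level, 3 residual and 3.45 prior degrees of freedom. Tests were two-sided and adjusted by Benjamini and Hochberg over all 12238 genes. The script was tested on simulated data. Pairing comes from the cell line in the labels (replicate 1 is H1, replicate 2 HUES9); the HUES9 minus H1 differences of RABC correlated across genes with those of passage 8 (r = 0.381) and passage 25 (r = 0.229), and those of the 2 passages with each other (r = 0.069).

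FPKM hold no counts, so no counting interval is given and the depth itself is unknown. Relative depth was estimated from values of up to 0.03 FPKM. A check used values of up to 0.1 FPKM, scaled by that depth. In it 93.4% of 182 values in 116 genes were whole multiples, within 2%, of a smallest value that at least 3 libraries shared.

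The comparison, its markers, the 34 gene lists and the tests were chosen with earlier results of these data known, and 2 lists were added later. The text names the markers, the first member and up to 4 most changed members of each list at 5 FPKM or more, and the 15 largest changes without overlap in each direction; others are list members, or genes chosen after their values were seen. Some genes are not reported here. Alternatives covered the pseudocount, the filter, rescaling, the block, the passages, the libraries in the fit and leaving out each library.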

Additional observations from a re-analysis of the deposited data

Results flagged for a closer look

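Of 110 named genes that were tested, 19 had 1 of the 4 srNMP libraries so far from the other 3 that the gap to the nearest passed Dixon's 95% value. For 4 like, normally distributed values chance flags about 1 gene in 20. That rate need not hold here: the values are FPKM without logs, the libraries differ in line and passage, and many genes were named for large changes. The library was HUES9 passage 25 for 12 genes, each time as the highest. It had 72 FPKM of STMN2, 4.57 of STMN4, 2.59 of NHLH2 and 5.68 of NEUROG1 (neuronal or proneural) and 1.15 of PRDM13 (dorsal progenitor). It had 19.4 FPKM of RHBDL3 and 41.6 of RARRES2. It had 22 FPKM of NKX6-1 and 29.995 of PTCH1, a ventral factor and a hedgehog target. Low levels of genes that were high in RABC completed the set: 0.439 FPKM of RARB, 0.687 of WNT7B and 0.351 of EPHA3.

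HUES9 passage 8 was the highest for FGF8 at 171 FPKM and SOX10 at 9.89, and the lowest for WNT4, listed at 0. H1 passage 8 was the highest for SCUBE2 at 19.2 FPKM, LIN28B at 37.7 and WNT1 at 0.0115, the last a trace. H1 passage 25 was the highest for ARID3A at 23.9 FPKM.

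In ID3 and CCND1 the RABC library lay on opposite sides of the srNMPs of its own line in H1 and HUES9. The change in HUES9 minus that in H1 was -2.30 for ID3 and 1.12 for CCND1, on the log2(FPKM + 1) scale. limma's test of that difference called neither gene.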

How the results depend on the processing

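The count of 116 called genes fell to 71 (30 higher, 41 lower) after rescaling to equal totals, which moved the median change of all genes to 0.11, to 68 with no replicate block (66 of the 116 among them), to 7 with the replicate block and 1 mean for each passage, and to 26 without both passage 8 libraries. It was 234 without both passage 25 libraries (150 higher, 84 lower) and 0 without the filter, where the smallest adjusted p from limma was 0.0548 and 2462 genes had an unadjusted p under 0.05. Leaving out each library in turn gave 0 to 605. A pseudocount of 0.1 FPKM gave 98 with another balance, 24 higher and 74 lower, quantile normalization 166 (70 and 96), and a fit of 13 libraries 137, of which 85 were among the 116. The reasons for these changes were not tested. No direction of a called named gene reversed. Of 29 called genes chosen by the naming rule 29 remained called after quantile normalization, 24 after rescaling, 22 with the smaller pseudocount and 19 with no replicate block. Of all called genes in the text, rescaling ended the calls of ARID3A, CACNG7, CD74, DUSP6, ETV5, IGFBPL1, NTRK2, PSMB8, RARB, ROBO3, ROR2, SEMA6B and SPRY4, the smaller pseudocount those of CACNG7, DUSP6, ETV5, GAD1, PRDM13, RARB, ROBO3, SEMA6B, SLC30A8, SPRY4 and WNT7B, and the fit of 13 libraries those of B2M, CACNG7, GAD1, HOXA6, IFITM2, MSX2, OLIG3, ROBO3 and ROR2. Among genes chosen by that rule quantile normalization added ETV4, HOXA4, HOXD4, KRT8, NEUROG2 and TPPP3.

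A pseudocount of 0.1 moved the median change of the BMP-responsive genes to 2.03 and of the tail bud genes to -4.66. Leaving out 1 library, the median ran from -3.35 to -1.74 for tail bud genes, 0.24 to 1.10 for HOX paralogs 1 to 5, 0.52 to 1.34 for neural progenitor genes and -0.056 to 0.275 for WNT targets. The test between lines called 0 genes under each alternative run. With FPKM alone, the error of low values cannot be stated.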
